A study of Mus musculus with 5 samples.

Results

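The 37 genes described here act in DNA replication and S phase. They were taken by symbol from a table of 23478 genes: 6 subunits of the MCM helicase, 2 origin licensing factors, 4 factors of helicase activation, 6 genes of the sliding clamp and its loader, 6 polymerase and primase subunits, 2 genes of Okazaki fragment maturation, 4 enzymes of nucleotide synthesis, 4 genes of chromatin and histone supply, and 3 genes of the switch from G1 to S phase. The choice used gene function and not the measured levels, although earlier results of these data were known when it was made. All 37 genes had enough reads to be tested, together with 15298 genes in all.

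RNA-Seq was performed on GFP-sorted lung cells from mice at postnatal day 6 (P6). All mice carried the Gli1creER driver and the Rosa-EGFP reporter and received 100 µg tamoxifen per pup at P0 and P1. The 2 control libraries came from Igf1r Flox/Wildtype mice, and the 3 Igf1r-deleted libraries from Igf1r Flox/Flox mice, so that control cells could also lose 1 Igf1r allele. Igf1r encodes the receptor for insulin-like growth factor 1. Recombination is limited to cells in which the Gli1 promoter was active when tamoxifen was given, and the sources used here do not say whether animals were pooled. P values therefore measure the spread between libraries, which may be technical in part.

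The libraries held 35116766 to 37597857 counts. CPM are read counts scaled to the size of each library. Igf1r stood at 324 CPM in both controls, as against 140, 177 and 194 CPM after deletion (replicates 1, 2 and 3), so the genotypes did not overlap. These counts cover the whole gene and not only its floxed part. Y-linked genes were read in both controls and in Igf1r-deleted replicate 2, whereas Igf1r-deleted replicates 1 and 3 had Xist at 170 and 435 CPM, so animal sex is not balanced between the genotypes. The cells are labelled as fibroblasts, and the fibroblast marker Pdgfra stood at 480 to 684 CPM. Markers of other cells were also read, with 233 to 552 CPM for Sftpc of epithelial type 2 cells, 40.2 to 120 CPM for Pecam1 of endothelium and 12.2 to 31.1 CPM for Ptprc of blood cells.

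DNA replication is prepared in G1, when the origin recognition complex, CDC6 and CDT1 load the ring of MCM2 to MCM7 onto DNA. In S phase, CDC45 and the GINS complex turn that ring into a moving helicase, primase and the polymerases copy both strands, and the clamp PCNA holds the polymerases on DNA. Cyclin E with its kinase and the E2F factors, which switch on most of these genes at the end of G1, set the time of entry, and alveolar fibroblasts of the newborn lung are among the cells that still divide. In sorted bulk cells, a larger share of cells in S phase and more of these mRNAs in each cell cannot be told apart.

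E2F factors bind short promoter elements, and these are shown here because they are a feature that several of the 37 genes share and that the choice of genes did not use. The promoter window of the RefSeq table, GRCm38.p6, covers 250 bases before to 50 bases after each transcription start. It was available for 30 of the 37 genes, not for Mcm4, Gins1, Gins2, Rfc2, Prim2, Pole and Ccne2. The search took TTTCCCGC, TTTCGCGC, TTTGCCGC and TTTGGCGC on both strands. Matches lying wholly upstream of the start were found in Cdc6, Mcm5, Mcm6, Mcm7, Pola1, Rfc3 and Uhrf1, and for the first 5 of these the stretch around them is given from 5′ to 3′ on the strand of the gene, with the matches in capitals. Mcm5 (chr8:75109326-75109397, plus strand), Mcm6 (chr1:128359715-128359845, minus strand) and Pola1 (chrX:93632256-93632323, minus strand) lie outside the annotated gene. For Cdc6 (chr11:98908003-98908030, plus strand) and Mcm7 (chr5:138172031-138172058, minus strand), where another annotated transcript starts farther upstream, only the match and its closest bases are given.
Mcm5: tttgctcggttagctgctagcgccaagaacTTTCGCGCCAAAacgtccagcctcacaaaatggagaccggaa
Mcm6: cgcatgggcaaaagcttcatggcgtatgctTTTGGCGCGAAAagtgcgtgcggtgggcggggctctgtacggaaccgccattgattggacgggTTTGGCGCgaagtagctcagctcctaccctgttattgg
Pola1: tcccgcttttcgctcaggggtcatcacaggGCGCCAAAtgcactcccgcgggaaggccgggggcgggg
Cdc6: ccggtggagaGCGGGAAAtcgcctgggg
Mcm7: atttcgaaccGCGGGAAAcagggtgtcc

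In Mcm5 and Mcm6 a match on each strand overlaps the other. The run TTTTGGCGCGAAA of Mcm6 stands in Mcm5 on the other strand, and this run of 13 bases was found on either strand in the promoter windows of 3 of 27025 genes. It was picked as the longest run with an E2F match that Mcm5 and Mcm6 share upstream of the start. These 2 genes of the 3 were therefore set by the choice, and the count is a description. An E2F match was present in 11 of the 30 genes (36.7%), as against 493 of the 11269 tested genes with a window (4.37%). It is not particular to these genes. In the lists compared further below, 14 of 51 other replication genes with a window held a match (27.5%). So did 9 of 27 G1/S regulators (33.3%) and 3 of 33 mitotic genes (9.09%). By role, matches were found in 4 of 5 MCM genes (Mcm3, Mcm5, Mcm6 and Mcm7), in both licensing genes (Cdc6 and Cdt1), in Pola1 and Pold1 of the polymerases, in Rfc3 of the clamp loader, in Lig1 and in Uhrf1. None of the 4 nucleotide synthesis genes held one. A second element, TTTGAA, searched on both strands and known as the CHR of genes that peak in mitosis, was present in 3 of the 30 genes, in 24 of 33 mitotic genes with a window (72.7%) and in 14.3% of tested genes. A match is only a run of letters, and the absence of one says nothing of a factor outside this window.

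Replication genes were, in most cases, somewhat higher in Igf1r-deleted than in control cells, but no single gene passed the test. The log2 fold change was above 0 for 34 of 37 genes, where 52.3% of all tested genes lay above 0. The 37 genes were read in the same 5 libraries, so their signs are not 37 separate observations. The median log2 fold change was 0.29, a 1.22-fold difference, and that of all tested genes was 0.015. Values ran from -0.31 for Ccne1 to 1.12 for Cdc6. By edgeR's quasi-likelihood test and Benjamini-Hochberg adjustment, 0 of the 37 genes had an adjusted p under 0.05, as did 0.00% of all genes, and the adjusted p ranged from 0.354 to 0.985. The deleted gene Igf1r, with a log2 fold change of -0.93, also had an adjusted p of 0.354 by this test. The absence of calls is therefore weak evidence of no difference.

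At an unadjusted p under 0.05, edgeR placed 4 of 37 genes higher in Igf1r-deleted cells (10.8%), where 5.65% of all tested genes were called higher, and 0 of 37 lower, where 6.75% were. These 4 genes were Cdc6, Mcm3, Mcm5 and Pole. They also had a log2 difference of 0.5 or more and CPM over 1 in 50% or more of the libraries of either genotype, which together with the unadjusted p took 5.83% of all genes. The study set its minimum on FPKM, which counts per length of gene. FPKM was not used here. Levels per kilobase of exon used the merged exons of all annotated transcripts of a gene. On that scale Cdc6 (0.248 CPM in controls and 0.539 CPM in Igf1r-deleted cells) and Pole (0.551 and 0.796 CPM) lay under 1 in both genotypes. A merged length can exceed that of a single mRNA and so lower the value. These values therefore do not show whether the genes would pass the study's minimum. DESeq2 gave an adjusted p to 34 of the 37 genes, not to Cdc45, Mcm10 and Ccne2, and called 0 of them, where it called 1.61% of the 12328 genes with an adjusted p. Before adjustment DESeq2 placed 6 of the 37 higher, where it placed 5.63% of all genes, and limma voom placed 4 higher, where it placed 5.40%, and called 0 after adjustment. For 11 genes every Igf1r-deleted library exceeded both controls (29.7%), where 16.0% of all genes did so. In the lists compared further below, 37.7% of other replication genes, 33.3% of G1/S regulators and 17.5% of mitotic genes did so. Among the 37 genes, the reverse held for Ccne1 alone (2.70%), where 14.9% of all genes did so. In those 3 lists the reverse held for 3.28%, 16.7% and 0%. With 2 libraries against 3, an exact permutation test of a single gene cannot give a p under 0.1.

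**Figure D1:**
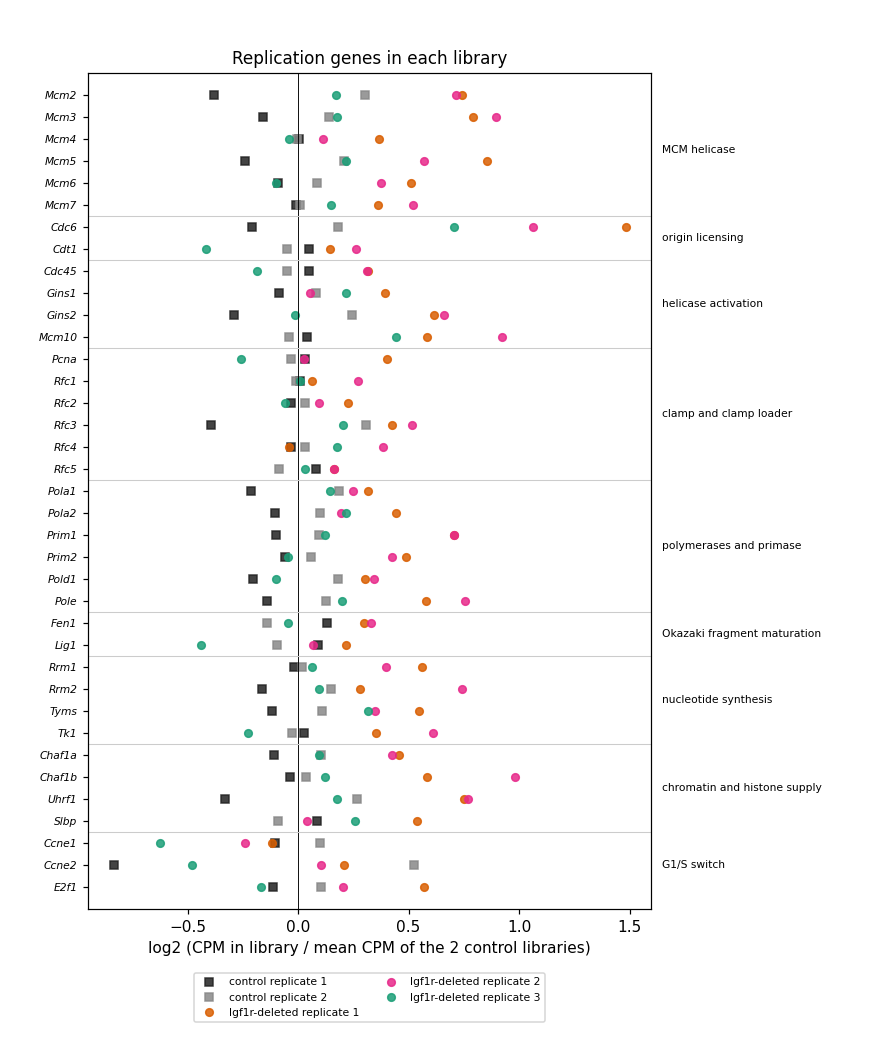
Each row is a replication gene and each symbol a library, placed on the x axis by the log2 ratio of its CPM to the mean CPM of the 2 control libraries, with squares for control and circles for Igf1r-deleted libraries. Igf1r-deleted replicates 1 and 2 lie to the right of both controls for 34 and 31 genes, whereas Igf1r-deleted replicate 3 does so for 14.

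The Igf1r-deleted libraries differed among themselves. The 37 genes together made up 430 and 470 CPM of control replicates 1 and 2. They made up 615, 584 and 453 CPM of Igf1r-deleted replicates 1, 2 and 3. The third of these lay between the controls, so the genotypes overlapped in the summed level. The 40 mitotic genes compared further below were split alike. They summed to 502 and 439 CPM in the controls and to 637, 632 and 459 CPM in Igf1r-deleted replicates 1, 2 and 3. Igf1r-deleted replicate 1 exceeded both controls for 34 of 37 genes, replicate 2 for 31 and replicate 3 for 14, and replicate 3 lay below both controls for 10. Control replicate 1 was the lowest library for 21 genes and Igf1r-deleted replicate 3 for 10. Without Igf1r-deleted replicate 3, the genotypes did not overlap for 30 genes higher in Igf1r-deleted cells, where 20.4% of all genes did so, and edgeR gave 13 genes an unadjusted p under 0.05, where 3.17% of all genes were called higher. Without control replicate 1, edgeR gave 0 such genes, where 1.15% of all genes were called higher.

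Levels of other cell types moved among the libraries as well. The 9 hematopoietic markers all lay lower in Igf1r-deleted cells, with a median log2 fold change of -0.81 and a summed level of 584 and 423 CPM in the controls against 473, 336 and 208 CPM. Summed over 11 epithelial markers, the controls held 1058 and 993 CPM as against 705, 1075 and 475 CPM after deletion, and over 8 endothelial markers 505 and 498 CPM against 466, 709 and 251 CPM. Igf1r-deleted replicate 3, with the lowest replication gene level of its genotype, was thus also the lowest of all 5 libraries in these 3 lists. Igf1r-deleted replicate 1, with the highest replication gene level (615 CPM), lay below both controls in the epithelial and endothelial lists. Over 4 mesothelial markers, the controls held 275 and 287 CPM as against 222, 199 and 284 CPM after deletion. The 12 myofibroblast markers summed to 4572 and 4861 CPM in controls as against 4824, 5616 and 5475 CPM after deletion. Of these markers, 9 had a log2 fold change above 0 and 3 below. The 7 markers of matrix fibroblast 2 summed to 1688 and 1788 CPM in controls as against 1656, 1092 and 1293 CPM. Over 9 markers of matrix fibroblast 1 and lipofibroblast, the controls held 21776 and 22367 CPM as against 22311, 19322 and 19106 CPM. The part of these other cells in the replication gene levels was not tested.

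The MCM helicase, a ring of 6 related subunits that unwinds DNA ahead of the fork, had log2 fold changes above 0 for all 6 genes, with a median of 0.46. Mcm3, given here as for all genes in the order of the replicate numbers, measured 18.3 and 22.5 CPM in controls and 35.2, 37.9 and 23.0 CPM in Igf1r-deleted cells. The genotypes did not overlap, although the lowest Igf1r-deleted library was close to the higher control. The log2 fold change was 0.65 ± 0.22 (SE), with an unadjusted p of 0.020 and an adjusted p of 0.354 by edgeR's quasi-likelihood test and Benjamini-Hochberg adjustment. Mcm5 stood at 12.2 and 16.7 CPM in controls and at 26.2, 21.5 and 16.8 CPM in Igf1r-deleted cells, a log2 fold change of 0.57 ± 0.22 (SE). Here too replicate 3 was almost level with control replicate 2.

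Mcm2 showed the widest control pair of the ring, with 20.6 and 33.1 CPM against 44.9, 44.1 and 30.3 CPM. Igf1r-deleted replicate 3 lay between the controls, and the log2 fold change was 0.56 ± 0.24 (SE), and became 0.26 if control replicate 1 was left out and 0.94 if control replicate 2 was. Mcm4, the ring subunit with the most reads per kilobase of exon, was level in the controls at 40.03 and 39.9 CPM and reached 51.5, 43.2 and 38.8 CPM in Igf1r-deleted cells, so that 1 of 3 libraries fell below both controls. Mcm6 (log2 fold change 0.28) overlapped between genotypes. Mcm7 (0.35) did not overlap, with 8.18 and 8.27 CPM in controls and 10.6, 11.8 and 9.13 CPM in Igf1r-deleted cells. Of the Mcm7 transcript sequence, 33.4% of all runs of 31 bases are shared with other annotated transcripts, mainly the pseudogene Gm5487, so its count is uncertain.

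The licensing pair that loads the ring differed from each other. Cdc6, the ATPase that acts with the origin recognition complex, had 1.12 and 1.47 CPM in controls and 3.63, 2.72 and 2.12 CPM in Igf1r-deleted cells. All 3 Igf1r-deleted libraries lay clear of both controls. Its log2 fold change of 1.12 ± 0.35 (SE) was the highest of the 37 genes, with an unadjusted p of 0.015 and an adjusted p of 0.354 by edgeR's quasi-likelihood test and Benjamini-Hochberg adjustment, and Cdc6 was also the second lowest of the 37 in level per kilobase of exon. Cdt1, its partner in loading, had 7.69 and 7.18 CPM in controls and 8.22, 8.90 and 5.57 CPM in Igf1r-deleted cells. Igf1r-deleted libraries lay on both sides of the controls, and the log2 fold change was 0.026 with a 95% interval from -0.52 to 0.57. Its sign turned without Igf1r-deleted replicate 2 (-0.11), without Igf1r-deleted replicate 1 (-0.041) and without control replicate 2 (-0.033).

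Among the 4 factors that activate the loaded helicase, log2 fold changes lay between 0.17 and 0.66. Mcm10, which helps the activated helicase to open DNA, had 1.56 and 1.47 CPM in controls and 2.27, 2.87 and 2.06 CPM in Igf1r-deleted cells. The genotypes did not overlap, and the log2 fold change was 0.66 ± 0.30 (SE). Gins1, a subunit of the GINS complex, overlapped, with 1.87 and 2.10 CPM against 2.61, 2.06 and 2.31 CPM. Its partner Gins2 (0.45) and the helicase cofactor Cdc45 (0.17) overlapped too, and 67.3% of the exon length of Gins2 is shared with the neighbouring gene Gse1.

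The sliding clamp and its loader lay closest to 0 of the roles in which every gene was above it, with a median log2 fold change of 0.12 and with overlap between genotypes for all 6 genes. Pcna, the clamp, had the highest level per kilobase of exon of the 37 genes, at 40.5 and 38.9 CPM in controls and 52.5, 40.4 and 33.2 CPM in Igf1r-deleted cells. One Igf1r-deleted library exceeded both controls, another lay between them and the third fell below them. The log2 fold change of Pcna was 0.083, with a 95% interval from -0.35 to 0.51, and -0.11 without Igf1r-deleted replicate 1. Rfc3, a small subunit of the loader, had 4.09 and 6.66 CPM in controls and 7.23, 7.67 and 6.18 CPM in Igf1r-deleted cells, a log2 fold change of 0.39 that was 0.073 if control replicate 1 was left out and 0.77 if control replicate 2 was. The other loader subunits, Rfc1, Rfc2, Rfc4 and Rfc5, had log2 fold changes from 0.092 to 0.18. Pcna shares 23.3% of its runs of 31 bases with other transcripts, mainly the copy Pcna-ps2.

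All 6 polymerase and primase genes lay above 0, with a median log2 fold change of 0.30. Pole, the catalytic subunit of the polymerase of the leading strand, had 5.59 and 6.71 CPM in controls and 9.18, 10.4 and 7.07 CPM in Igf1r-deleted cells. The genotypes did not overlap, and the log2 fold change was 0.53 ± 0.22 (SE) with an unadjusted p of 0.044 and an adjusted p of 0.398 by edgeR's quasi-likelihood test and Benjamini-Hochberg adjustment. Prim1, the catalytic primase subunit, had 2.07 and 2.37 CPM in controls and 3.63, 3.62 and 2.42 CPM in Igf1r-deleted cells, a log2 fold change of 0.53 ± 0.29 (SE). As with Mcm3 and Mcm5, the third library stood just above the higher control. Pold1, the catalytic subunit of polymerase delta, overlapped, with 6.68 and 8.73 CPM against 9.52, 9.78 and 7.18 CPM. Pola2 (0.29) did not overlap between genotypes, whereas Prim2 (0.31) and the X-linked Pola1 (0.24) did.

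Okazaki fragments are trimmed by the flap nuclease FEN1 and sealed by DNA ligase 1. Fen1 had 18.9 and 15.7 CPM in controls and 21.3, 21.7 and 16.8 CPM in Igf1r-deleted cells, a log2 fold change of 0.20 with overlap. The exons of Fen1 overlap those of other genes over 84.2% of their length, with Tmem258 among them, so its reads may belong in part to these. Lig1 had 13.5 and 11.9 CPM in controls and 14.8, 13.3 and 9.38 CPM in Igf1r-deleted cells. Its log2 fold change of -0.026, with a 95% interval from -0.51 to 0.46, turned to 0.046 when counts were scaled by library totals and to 0.14 without Igf1r-deleted replicate 3.

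**Figure D2:**
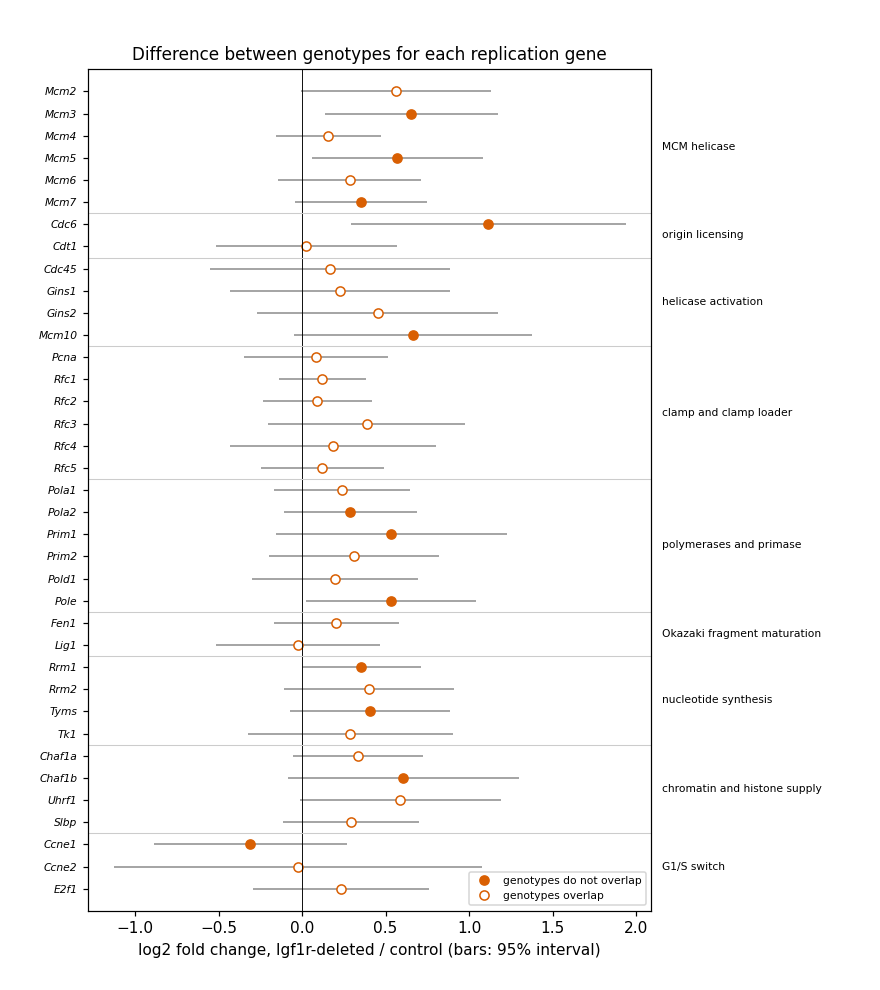
The x axis gives the log2 fold change of Igf1r-deleted over control cells for each replication gene, with the 95% interval of the edgeR model as a bar, and filled circles mark the 12 genes whose libraries do not overlap between genotypes. Cdc6 lies farthest to the right at 1.12 and Ccne1 farthest to the left at -0.31, and 33 of the 37 intervals include 0.

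The 4 enzymes of nucleotide synthesis had log2 fold changes in a narrow range, from 0.29 to 0.41. Rrm2, the small subunit of ribonucleotide reductase whose level follows S phase, had 10.6 and 13.1 CPM in controls and 14.4, 19.8 and 12.7 CPM in Igf1r-deleted cells. The third Igf1r-deleted library lay between the controls, and the log2 fold change was 0.40 ± 0.22 (SE). Tyms, the enzyme that makes thymidylate, had 3.92 and 4.58 CPM in controls and 6.21, 5.41 and 5.29 CPM in Igf1r-deleted cells, a log2 fold change of 0.41 ± 0.20 (SE). All 3 Igf1r-deleted libraries stood above both controls. Rrm1, the large reductase subunit, did not overlap either (0.35), while the salvage enzyme Tk1 did (0.29).

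Chromatin and histone supply had log2 fold changes from 0.29 to 0.61. Chaf1b, a subunit of the assembly factor that places new histones behind the fork, had 3.11 and 3.27 CPM in controls and 4.79, 6.31 and 3.48 CPM in Igf1r-deleted cells. The genotypes did not overlap, but the Igf1r-deleted libraries were wide apart, and the log2 fold change was 0.61 ± 0.29 (SE). Slbp, which binds the stem loop at the end of histone mRNAs, had 14.0 and 12.4 CPM in controls and 19.1, 13.5 and 15.8 CPM in Igf1r-deleted cells, with overlap and a log2 fold change of 0.29. Uhrf1, which guides maintenance DNA methylation at the fork, had a log2 fold change of 0.59 and Chaf1a, the other subunit of the assembly factor, 0.33, both with overlap. Chaf1a shares 52.5% of its exon length with Ubxn6, and 24.2% of the runs of 31 bases of Uhrf1 also occur in other transcripts.

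The 3 genes of the G1 to S switch had a median log2 fold change of -0.028, the only role with a median below 0. Ccne1, which encodes cyclin E1, had 4.03 and 4.64 CPM in controls and 3.995, 3.67 and 2.81 CPM in Igf1r-deleted cells. All 3 Igf1r-deleted libraries lay below both controls, the first of them by very little, and the log2 fold change was -0.31 with a 95% interval from -0.89 to 0.27. Ccne2, which encodes cyclin E2, had 0.893 and 2.29 CPM in controls and 1.84, 1.71 and 1.14 CPM in Igf1r-deleted cells. The controls enclosed all 3 Igf1r-deleted libraries, and the log2 fold change of -0.028 had a 95% interval from -1.13 to 1.07 and moved to 0.80 without control replicate 2 and to -0.55 without control replicate 1. E2f1, an activating factor of replication genes, had 10.4 and 12.1 CPM in controls and 16.7, 13.0 and 10.02 CPM in Igf1r-deleted cells, with libraries on both sides of the controls and a log2 fold change of 0.23. It was 0.025 without Igf1r-deleted replicate 1 and 0.40 without Igf1r-deleted replicate 3.

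Levels of the 37 genes differed far more between genes than between genotypes. On the scale of CPM per kilobase of exon, the control level was 16.5 for Pcna, 11.1 for Mcm4, 7.14 for Fen1, 6.54 for Mcm6 and 6.52 for Rfc1, and it was 0.197 for Mcm10 and 0.248 for Cdc6. Across the 37 genes, this control level and the log2 fold change had a Spearman rho of -0.28. The genes share the same libraries, and both quantities use the control counts, so this value is a description.

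Other genes of replication and of the cell cycle were compared on the same fit. Of 61 other replication genes, 51 had a log2 fold change above 0, with a median of 0.18. At an unadjusted p under 0.05, edgeR gave 6 higher (9.84%) and 1 lower (1.64%) in Igf1r-deleted cells, with 0 after adjustment. Of all tested genes, 5.65% were called higher and 6.75% lower. Nasp, a histone chaperone, had 12.7 and 14.6 CPM in controls and 18.5, 20.0 and 17.7 CPM in Igf1r-deleted cells, a log2 fold change of 0.46. Dnmt1, the maintenance DNA methyltransferase, had a log2 fold change of 0.38 and the chromatin remodeler Hells 0.70. Pold4, a small subunit of polymerase delta, had 22.5 and 17.9 CPM in controls and 14.9, 15.1 and 15.5 CPM in Igf1r-deleted cells, a log2 fold change of -0.42, and so lay opposite to Pold1. Orc5 of the origin recognition complex (-0.12) and the reductase subunit Rrm2b (-0.13) followed by p among the genes below 0 and did not pass the test.

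The regulators of G1 and S phase lay on both sides of 0. Of 36 tested genes 24 lay above 0 and 12 below, with a median log2 fold change of 0.12. At an unadjusted p under 0.05, edgeR gave 7 higher (19.4%) and 4 lower (11.1%), with 0 after adjustment. The shares of all tested genes were 5.65% and 6.75%. Mybl2, a transcription factor of dividing cells, had 2.16 and 2.48 CPM in controls and 4.90, 5.13 and 3.59 CPM in Igf1r-deleted cells, a log2 fold change of 0.97. E2f3, another activating E2F, had a log2 fold change of 0.70 and the pocket protein gene Rbl1 0.47. Myc, a growth factor responsive transcription factor, had 60.1 and 35.7 CPM in controls and 32.4, 20.9 and 22.7 CPM in Igf1r-deleted cells, a log2 fold change of -0.92 that was -0.50 if control replicate 1 was left out and -1.26 if control replicate 2 was. Cdkn1c, an inhibitor of cyclin-dependent kinases, and the E2F partner Tfdp2 had -0.42 and -0.49. For each of these 6 genes the libraries of the genotypes did not overlap, and the adjusted p was 0.354 by edgeR's quasi-likelihood test and Benjamini-Hochberg adjustment.

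Of 40 mitotic genes 36 lay above 0, with a median log2 fold change of 0.25 that ran from 0.12 without control replicate 2 to 0.40 without Igf1r-deleted replicate 3. The median of the 37 replication genes was 0.37 and 0.44 in these fits. For mitotic genes edgeR gave 4 higher (10%) and 0 lower at an unadjusted p under 0.05, with 0 after adjustment. Over all tested genes the shares were 5.65% higher and 6.75% lower. Mki67, the common marker of dividing cells, had 65.7 and 65.8 CPM in controls and 88.2, 124 and 84.9 CPM in Igf1r-deleted cells, a log2 fold change of 0.59. Bub1 of the spindle checkpoint had 0.69 and the mitotic kinase Pbk 0.66, whereas Cks2 (-0.097), Cdc25c (-0.089) and Ncapd2 (-0.0049) had the smallest p of the 4 genes below 0 and did not pass the test. The mean log2 CPM of the 37 replication genes minus that of the mitotic genes was -0.32 and 0.14 in the controls and -0.085, -0.031 and 0.10 in Igf1r-deleted cells. The Igf1r-deleted values all lay between those of the controls, so the balance of the 2 lists did not separate the genotypes.

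**Figure D3:**
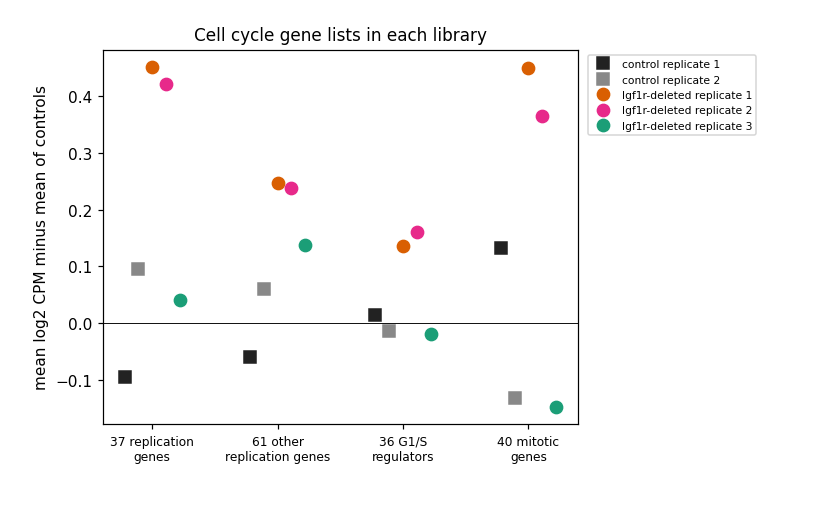
The y axis gives the mean log2 CPM of each gene list in a library minus the mean of the control libraries, for replication genes, other replication genes, regulators of G1 and S phase and mitotic genes. Igf1r-deleted replicates 1 and 2 stand at 0.45 and 0.42 for the 37 replication genes, while replicate 3 stands at 0.040, between the controls at -0.095 and 0.095. For mitotic genes replicates 1, 2 and 3 stand at 0.45, 0.36 and -0.15, with the controls at 0.13 and -0.13. For other replication genes they stand at 0.25, 0.24 and 0.14, and for regulators of G1 and S phase at 0.14, 0.16 and -0.019.

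**Figure D4:**
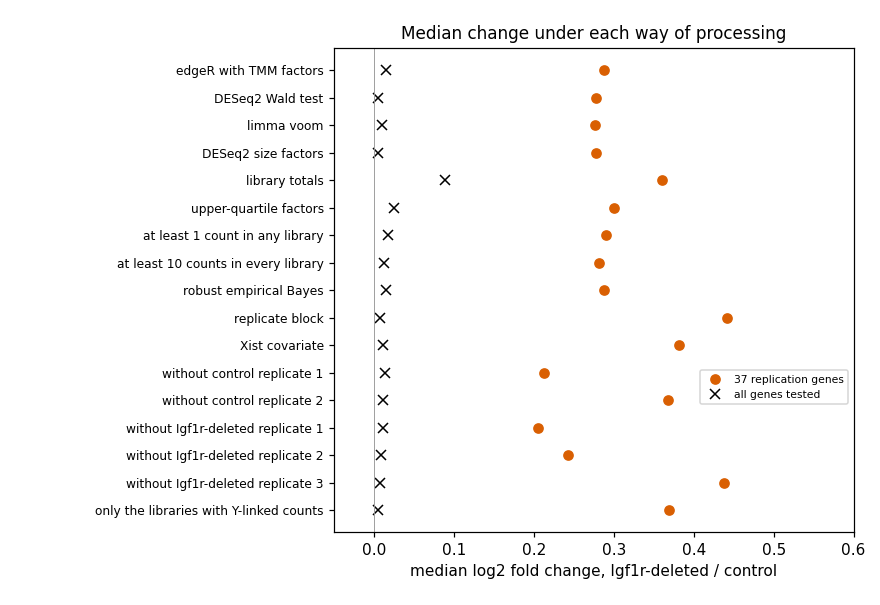
The x axis gives the median log2 fold change of the 37 replication genes (circles) and of all genes tested (crosses), with 1 line for each way of processing or set of libraries. The median of the replication genes stays between 0.20 and 0.44 and lies to the right of the median of all genes in each line.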

How the data were processed

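RNA-Seq of 5 libraries of GFP-sorted lung cells was analysed, 2 control and 3 Igf1r-deleted, grouped by the sample labels. The authors used Trim Galore for trimming, Bowtie2 for alignment to mm10 and the GenomicAlignments package for counting, and the deposited values are raw counts per gene with no scaling. The use of strand, of reads with several matches and the annotation are not given in the sources used here, so reads of overlapping genes or near copies may be split or shared.

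Genotypes were compared by the two-sided quasi-likelihood F test of edgeR 4.0.16 in R 4.3.3. TMM factors and the filterByExpr filter were used, and p-values were adjusted by Benjamini-Hochberg over 15298 genes. CPM used TMM-scaled library sizes, and mean log2 CPM a prior count of 2. The 95% intervals and SE came from this model. Its code was first checked on counts simulated with set fold changes. DESeq2 1.42.0, limma voom 3.58.1, other scalings, filters, a replicate block, an Xist covariate and leaving out each library were alternatives. Libraries totalled 35116766 to 37597857 counts, and the lowest count of the 37 genes in any library was 31, for Ccne2 in control replicate 1.

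Gene models were GENCODE M21 on GRCm38, and promoter sequences came from RefSeq, GRCm38.p6. Exon length was that of the merged exons of all annotated transcripts of a gene. A gene with several promoter windows counted as holding an element if any window did. The 37 genes and the other lists were chosen with earlier results of these data known. Values per library are given for genes with an unadjusted p under 0.05, for the gene of each role with the largest absolute log2 fold change and with the highest level per kilobase, for Pcna, Mcm2, Ccne1, E2f1 and Rrm2, and of the other lists, the 3 genes of smallest p in each direction are named, some with values per library. Those of Ccne2, Lig1 and Mcm7 were added after their values were seen. Motifs were searched in windows of 300 bases.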

Additional observations from a re-analysis of the deposited data

How the results depend on the processing

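The median log2 fold change of the 37 replication genes was above that of all genes under every alternative run, between 0.20 without Igf1r-deleted replicate 1 and 0.44 with the replicate block, and 32 to 36 of the 37 genes lay above 0. Scaling by library totals gave 9 genes an unadjusted p under 0.05 (8.78% of all genes were called higher), 19 genes without overlap that were higher (22.4% of all genes) and 0 that were lower (10.8%), moved the median of the other replication genes to 0.25, and moved the median of all genes from 0.015 to 0.088. It also moved the share of higher genes among all genes with an unadjusted p under 0.05 from 45.6% to 64.4%. Upper-quartile factors gave 0 genes without overlap that were lower (14.3% of all genes), and a filter of at least 1 count in any library gave 7 genes an unadjusted p under 0.05 (5.15% of all genes were called higher). With Xist as a covariate this count was 8 (4.53%). With only the 3 libraries that had Y-linked counts, an alternative chosen after seeing the data, Igf1r-deleted replicate 2 was the only library of its genotype and was assumed to vary like the controls. The count was then 11 (5.31%), with 31 genes without overlap that were higher (39.6% of all genes). The thresholds after the study, with CPM in place of its FPKM, took 4 genes. The cause of these moves was not tested.

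Only 2 replicate numbers occur in both genotypes, and labels do not tie them to a litter or batch. Deviations correlated at 0.21 (number 1) and 0.12 (number 2), and at 0.12 for control replicate 2 with Igf1r-deleted replicate 3. These values cannot show pairing. In the fit with the replicate block, in which Igf1r-deleted replicate 3 has no partner and adds nothing to the comparison, 1 gene was called after adjustment (Mcm3, log2 fold change 0.85, adjusted p = 0.019 by edgeR, with 0.019 to 0.404 over the 10 alternatives that kept all libraries), as were 136 of 15298 genes in all. Before adjustment 14 had a p under 0.05 (6.10% of all genes were called higher). Of the other named genes, the block called only Myc and Igf1r, and DESeq2 Cdkn1c and Igf1r. The block turned the signs of Ccne2 (0.27), Lig1 (0.14), Cks2 (0.019), Cdc25c (0.29) and Ncapd2 (0.084).

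Leaving out 1 library in turn gave 0 replication genes after adjustment and 0 to 13 higher at an unadjusted p under 0.05. These were 0 without control replicate 1 (1.15% of all genes), 6 without control replicate 2 (6.95%), 1 without Igf1r-deleted replicate 1 (9.40%), 1 without replicate 2 (2.43%) and 13 without replicate 3 (3.17%). Genes without overlap were 11 to 30 higher and 1 to 2 lower. In the same order the higher ones were 14, 21, 11, 12 and 30 of 37, where 23.6%, 31.03%, 28.9%, 20.1% and 20.4% of all genes were. The log2 fold change moved by over 1.5 times or turned in sign in at least 1 of these fits for 29 of the 37 genes, and turned for 4. Where 1 control was left, it was assumed to vary like the other libraries. Over these fits Ccne2 ran from -0.55 to 0.80, Lig1 from -0.17 to 0.14, Cdt1 from -0.11 to 0.20, Pcna from -0.11 to 0.22, Cdc25c from -0.50 to 0.46, Ncapd2 from -0.18 to 0.094 and Cks2 from -0.26 to 0.022. Other signs that turned were Ccne2 with voom (0.084), library totals (0.039), the Xist covariate (0.21) and the Y-linked libraries (0.094), Lig1 with library totals (0.046), the Xist covariate (0.041) and the Y-linked libraries (0.062), and Ncapd2 with library totals (0.063) and upper-quartile factors (0.0056).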
